A study of Mus musculus with 8 samples.

Results

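The 10 genes considered here belong to iron regulation and bone morphogenetic protein (BMP) signalling, and their chromatin was followed by bulk ATAC-Seq in regenerating mouse liver. ATAC-Seq uses the Tn5 transposase to cut accessible DNA, so that a peak marks open chromatin. They were Hamp, Hamp2, Smad6, Id1, Id3, Tfr2, Hfe, Trf, Tfrc and Slc40a1, of 21911 protein-coding genes on the chromosomes used. For each gene, every distinct peak interval that overlapped the gene body or the 10 kb on either side was taken, and intervals within 1 kb of an annotated transcription start site (TSS) were kept apart as promoter intervals from the other, distal ones. Merging the overlapping intervals of all lists gave 126 regions at these genes (14 promoter, 112 distal) of 315767 regions in all.

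The libraries were made from hepatocytes, the main parenchymal cells of the liver, which had been isolated by collagenase perfusion from C57BL/6 mice (C57BL/6J in the study's methods) on a normal diet, given as 10 to 12 weeks old. Healthy, undamaged liver served as the 0 h group, and the other groups were taken at 48, 72 and 96 h after partial hepatectomy (PHx), in which part of the liver is cut away and the rest regrows. Each of the 4 groups had 2 libraries, so 2 lists stood for 0 h and 6 for PHx, and the same 0 h lists served every comparison. The groups shared strain, diet and cell isolation, no label gave a sham operation, and the study's methods used males.

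The liver sets the body's iron level through hepcidin, the peptide hormone encoded by Hamp, which triggers the degradation of ferroportin (Slc40a1), the exporter that releases iron from cells into plasma. BMP ligands, made largely by sinusoidal endothelial cells, act on hepatocyte receptors with hemojuvelin as a co-receptor, and the SMAD proteins activated in this way bind a BMP response element in the Hamp promoter. The same signal drives Id1, Id3 and the feedback inhibitor Smad6, while Hfe and transferrin receptor 2 (Tfr2) help the hepatocyte to sense iron-loaded transferrin (Trf), which the classical transferrin receptor (Tfrc) takes into cells.

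The promoters of Hamp and its duplicate Hamp2 are shown because they differ at the core of that element. Each run below covers the 240 bases from −250 to −11 relative to the RefSeq start on the minus strand of GRCm38.p6 (mm10), chr7:30944040-30944279 for Hamp and chr7:30924192-30924431 for Hamp2. Capitals mark GGCGCC, the core of the BMP response element, and TTCNNNGAA, the STAT form.
Hamp: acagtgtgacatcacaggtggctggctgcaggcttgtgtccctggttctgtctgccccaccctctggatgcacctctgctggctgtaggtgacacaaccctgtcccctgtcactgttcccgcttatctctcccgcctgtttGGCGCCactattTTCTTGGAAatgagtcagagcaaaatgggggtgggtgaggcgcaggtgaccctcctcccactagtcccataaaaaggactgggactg
Hamp2: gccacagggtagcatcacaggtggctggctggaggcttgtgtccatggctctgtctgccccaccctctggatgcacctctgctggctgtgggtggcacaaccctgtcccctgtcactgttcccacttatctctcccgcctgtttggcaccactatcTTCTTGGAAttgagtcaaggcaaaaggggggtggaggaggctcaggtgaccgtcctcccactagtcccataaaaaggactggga
Hamp held 1 GGCGCC at −109 to −104 and 1 TTCNNNGAA match at −97 to −89. Hamp2 kept the TTCNNNGAA match at −94 to −86 and had no GGCGCC in its window, the aligned hexamer carrying the change G4A, counted from 1 at the first base of the Hamp hexamer. Over the aligned stretch of the 300-base windows the genes were identical at 276 of 297 bases (92.9%), with a longest identical run of 45 bases, so that reads from one copy can be placed on the other and the values of both are uncertain to that extent. GGCGCC on either strand occurred in 11.9% and TTCNNNGAA in 8.3% of 32851 promoter windows of this length, so neither match was rare.

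RefSeq promoter windows were given for 7 of the 10 genes, Id1, Trf and Slc40a1 having none. GGCGCC was also present in the Tfrc window, at −89 to −84. TTNNGCAA, a C/EBP form, was matched in the Smad6 window at −39 to −32 on both strands at the same bases, and TGACNNNGC, the antioxidant response form, at 2 places in Smad6 and at 1 in Hfe. The windows of Id3 and Tfr2 held none of the 7 motifs searched.

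Distal sequence is shown for 3 regions near Id1 and Id3, since these held the long BMP response element (GGCGNC, then any 5 bases, then GTCT). Each is the 200 bases around the summit of the strongest peak, plus strand of mm10, with that element and GGCGCC in capitals.
Id1 at 3404 bp, chr2:152739388-152739587: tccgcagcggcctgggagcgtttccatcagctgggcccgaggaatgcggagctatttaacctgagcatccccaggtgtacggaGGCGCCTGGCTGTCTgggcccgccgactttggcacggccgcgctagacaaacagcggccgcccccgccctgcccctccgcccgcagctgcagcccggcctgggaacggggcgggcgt
Id3 at −2931 bp, chr4:136140431-136140630: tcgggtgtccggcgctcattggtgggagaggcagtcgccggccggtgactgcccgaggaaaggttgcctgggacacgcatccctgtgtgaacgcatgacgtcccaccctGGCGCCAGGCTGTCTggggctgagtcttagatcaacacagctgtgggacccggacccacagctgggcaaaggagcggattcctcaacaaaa
Id3 at 3447 bp, chr4:136147895-136148094: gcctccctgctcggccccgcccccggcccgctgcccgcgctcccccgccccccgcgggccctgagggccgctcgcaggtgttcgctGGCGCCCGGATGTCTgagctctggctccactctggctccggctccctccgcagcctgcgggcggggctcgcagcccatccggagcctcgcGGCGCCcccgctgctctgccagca
Regions are named by the distance of their centre from the TSS, positive in the direction of transcription. The long element occurred in 3 of the 54 distal regions of the 10 genes that had an interval in at least 4 lists (5.56%), against 0.0471% of 85002 such regions away from coding start sites. All 3 lay at Id1 or Id3. These genes and the motif were both chosen for BMP signalling, so the contrast is no independent support for such sites. Each match starts with GGCGCC, so that both motifs count the same bases. GGCGCC itself occurred in 9 of 54 (16.7%) against 3.16%. Among these 9, Trf at 28486 bp, lies at the promoter of the neighbouring gene Srprb, a kind of region that the comparison set leaves out. The same element with GACGNC in place of GGCGNC was found in 0 of 54 (0.0318% of all), TTCNNNGAA in 6 (5.95%), TTNNGCAA in 8 (14.4%), the E-box CACGTG in 2 (3.07%) and TGACNNNGC in 5 (10.6%). These matches are descriptions of the sequence and were not tested as sites.

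Peak strength was compared as rank within a list, 1 being the interval with the smallest p of the authors' peak caller. The lists held 105206 to 154577 distinct intervals, the read depth behind them is unknown, and −log10 p at rank 50000 ran from 8.05 to 15.2, lowest in both 48 h libraries and 96 h replicate 2. Of the promoters of 9 hepatocyte markers, both 0 h libraries listed 9, the 48 h libraries 5 and 7, the 72 h libraries 8 and 7, and the 96 h libraries 9 and 8. Their summed fold enrichment came to 44.6 and 44.3 in the 0 h libraries, to 19.4 and 30.2 in those of 48 h, and to 30.4 to 40.2 later. Of 7 endothelial markers 2 to 5 were listed, with a summed fold enrichment of 6.93 to 10.3 in 6 libraries but 22.0 in 48 h replicate 2 and 28.3 in 96 h replicate 1. The sinusoidal marker Clec4g had an interval in those libraries only, at rank 11977 and 12339, while Stab2 was listed in none. At most 1 of 7 Kupffer cell markers and 0 of 5 lymphocyte or erythroid markers were listed. Stellate markers numbered 2 to 5 of 5 and cholangiocyte markers 2 to 4 of 5, without Krt19. In bulk samples, fewer cells of a type and less accessible DNA per cell cannot be told apart.

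The hepcidin promoter was listed in every library and its PHx ranks overlapped the 0 h ranks at all 3 times. Hamp (chr7:30942368-30944032, minus strand) had promoter ranks of 35917 and 60740 in the 0 h lists, 49051 and 46319 in the 48 h lists, 61235 and 46265 in the 72 h lists, and 82355 and 48561 in the 96 h lists. Both 0 h values differed by more than the pairs at 48 and 72 h did, and the weakest rank of all was in 96 h replicate 1. The summits lay between −202 and −138 bp, upstream of both capitalised motifs in each list. The geometric mean rank was 46708 at 0 h and 54338 over all 6 PHx lists, a ratio of 1.16 (exact two-sided permutation test of 2 against 6 libraries, p = 0.464, adjusted p = 0.834 over all coding promoters). In the limma fit of fold enrichment, its promoter region differed from 0 h by 0.24, 0.20 and 0.10 (log2) at the 3 times in order, each ± 0.306 (SE).

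Hamp2 (chr7:30922372-30924681, minus strand) encodes a hepcidin-like peptide and gave few peaks. Its promoter was listed in 4 libraries, at 109564 in 0 h replicate 1, 69385 and 61089 at 72 h and 68134 in 96 h replicate 1. Both 48 h lists, 0 h replicate 2 and 96 h replicate 2 had no interval there. Both 72 h lists were thus stronger than both 0 h lists, and the promoter passed the minimum of 4 lists through these later libraries.

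Transferrin had the only promoter of the 10 that was weaker in all 6 PHx lists than in both 0 h lists. Trf (chr9:103204001-103230444, minus strand) ranked 21036 and 18964 in the 0 h lists, was absent and at 32015 in the 48 h lists, stood at 63790 and 48103 in the 72 h lists, and at 33967 and 40218 in the 96 h lists. Every PHx list lay below both 0 h lists, with no overlap, and 72 h was the lowest time among listed values. The geometric mean rank went from 19973 to 50108, a ratio of 2.51, with p = 0.0714 in the exact permutation test and an adjusted p of 0.579. The test did not pass (the smallest p it allows is 0.0357), and the summed hepatocyte markers were lower after PHx as well. Their part in the result was not tested. The promoter interval also covers the start of the readthrough gene Gm20425, and peaks of the 2 genes cannot be told apart.

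The promoters of ferroportin and the transferrin receptors were listed in every library. Slc40a1 (chr1:45908068-45926523, minus strand) ranked 5625 and 3551 in the 0 h lists, 6044 and 12885 in the 48 h lists, 7659 and 6977 in the 72 h lists, and 18408 and 4806 in the 96 h lists. Both lists at 48 h and at 72 h were weaker than both 0 h lists, and 96 h replicate 2 lay between the 0 h lists. Ordered by fold enrichment, the Slc40a1 groups overlapped at 48 and 72 h. Tfrc (chr16:32608920-32632794, plus strand) ranked 6267 and 12679 in the 0 h lists, 20006 and 10121 in the 48 h lists, 10522 and 27240 in the 72 h lists, and 9734 and 13830 in the 96 h lists. Its groups overlapped at all times. Tfr2 (chr5:137569840-137587481, plus strand) ranked 26091 and 13191 in the 0 h lists, 35384 and 19161 in the 48 h lists, 25085 and 39596 in the 72 h lists, and 28050 and 44391 in the 96 h lists. It was weaker in both lists at 96 h only, and overlapped there by percentile.

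Hfe lay slightly above its 0 h ranks at 48 h and slightly below them at 72 h by rank. Hfe (chr13:23702034-23710854, minus strand), the protein altered in the commonest hereditary iron overload, ranked 24020 and 23613 at 0 h. The values were 22039 and 17696 in the 48 h lists, 26655 and 25215 in the 72 h lists, and 16448 and 26439 in the 96 h lists. Both 48 h lists were stronger and both 72 h lists weaker than 0 h, while at 96 h the lists fell on either side. By percentile the 72 h lists (81.0 and 83.7) overlapped 0 h (81.1 and 77.6), and the limma difference at 72 h was 0.07 ± 0.264. Ordered by fold enrichment, Hfe was stronger in all 6 PHx lists.

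Of the SMAD targets Id1, Id3 and Smad6, Id3 alone had a strongest promoter interval that separated from 0 h by rank, at 48 h, while by fold enrichment Id1 alone did, weaker at 72 h. The weaker region across the Id1 start separated at 48 and 72 h. Id3 (chr4:136143497-136145755, plus strand), an inhibitor of basic helix-loop-helix factors, ranked 62070 and 27772 in the 0 h lists, 76961 and 72415 in the 48 h lists, 58352 and 60946 in the 72 h lists, and 46354 and 65063 in the 96 h lists. It was weaker in both 48 h lists and overlapped later, and by fold enrichment it overlapped at 48 h too. Smad6 (chr9:63953076-64022059, minus strand) ranked 19787 and 6310 in the 0 h lists, 44603 and 19627 in the 48 h lists, 9433 and 25474 in the 72 h lists, and 16872 and 12441 in the 96 h lists. The 48 h replicate 2 list lay just inside the 0 h range. Id1 (chr2:152736251-152737410, plus strand) ranked 33177 and 52662 in the 0 h lists, 28503 and 49648 in the 48 h lists, 71078 and 48767 in the 72 h lists, and 55962 and 35319 in the 96 h lists. In 7 lists the strongest Id1 interval had its summit between −1074 and −1018 bp, at the outer edge of the window, and only in 96 h replicate 2 did it lie at the start, at −30. The region across the Id1 start itself ranked 59030 and 53485 in the 0 h lists, weaker values of 71843 and 73322 in the 48 h lists and 72647 and 89552 in the 72 h lists, and 70853 and 35319 in the 96 h lists.

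**Figure D1:**
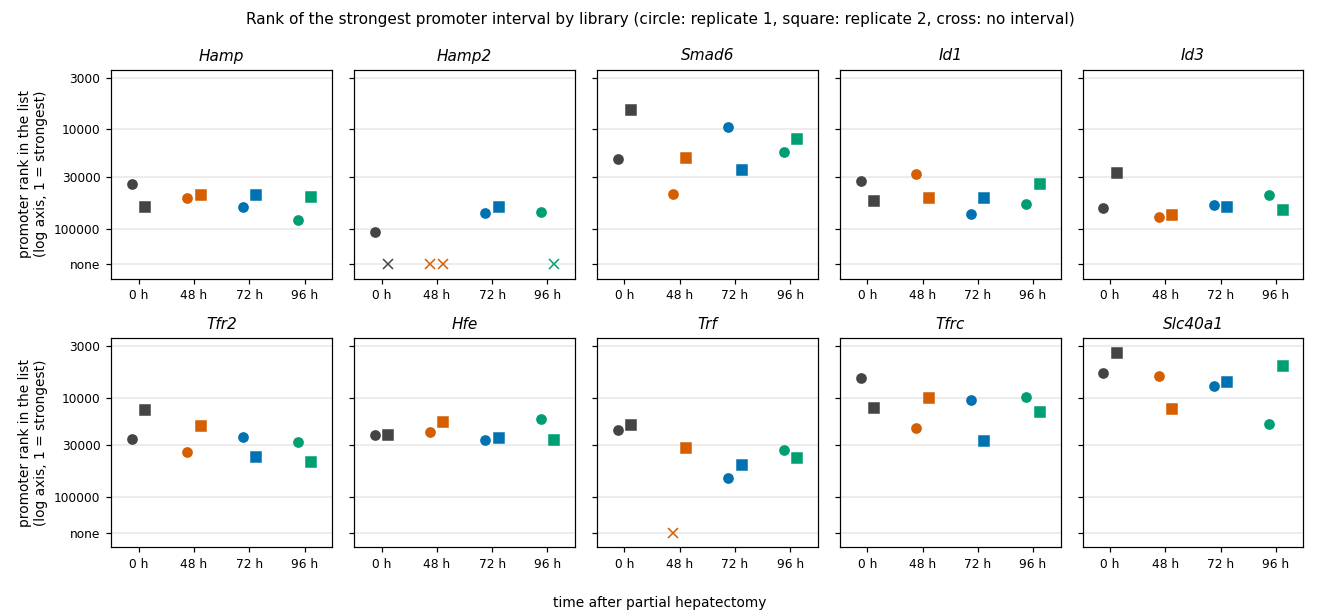
Rank of the strongest promoter interval (vertical log axis, 1 = strongest, with crosses for no interval) against time after PHx for the 10 genes, 1 point per library. The Trf points after PHx all lie below both 0 h points, the Hamp groups overlap throughout, and Hamp2 is listed in 4 of 8 libraries.

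Counted over the 10 promoters, 1 was stronger in both 48 h lists than in both 0 h lists and 3 were weaker. Of 14726 coding promoters with an interval in at least 4 lists, 17.0% and 27.6% did so. At 72 h the members' counts were 1 and 3 (all promoters 16.7% and 30.2%), and at 96 h 0 and 2 (14.7% and 18.9%). None was stronger and 1 weaker in all 6 PHx lists (4.39% and 7.33%). These shares were near those of all promoters. With 2 lists against 2 the smallest two-sided p is 0.333, so no p was given for a single time. Ranked by percentile instead, which allows for list length, 1 of the 10 was stronger and 3 weaker at 48 h (all promoters 20.2% and 21.6%), 1 and 2 at 72 h, and none and 1 at 96 h, while among all promoters the split turned to 27.7% stronger and 16.1% weaker at 72 h and to 22.5% and 11.8% at 96 h. In the permutation test of 0 h against all PHx, 0 of 10 members reached an unadjusted p under 0.05 (6.45% of 16412 promoters with any interval), and the lowest adjusted p of any promoter was 0.553.

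Id1 at 3404 bp (chr2:152739302-152740009, intergenic), which holds the long BMP response element shown above, was weak at 48 h alone. Its ranks were 26734 and 14511 in the 0 h lists, 96916 and 63740 in the 48 h lists, 20803 and 10909 in the 72 h lists, and 17263 and 16638 in the 96 h lists. Both 48 h lists lay far below the other 6, a pattern found in 1 of the 54 distal regions and in 5.64% of all. The limma difference from 0 h was −1.18 ± 0.319 (SE, log2 fold enrichment) for 48 h, 0.01 ± 0.319 for 72 h and 0.08 ± 0.319 for 96 h. The 48 h value had an unadjusted p of 0.00152 and did not pass adjustment (limma, Benjamini-Hochberg over 57473 regions, adjusted p = 0.265).

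Further downstream the direction at 48 h was opposite. Id1 at 5466 bp (chr2:152741374-152742062) ranked 20827 and 49012 in the 0 h lists, 6247 and 19375 in the 48 h lists, 16799 and 32417 in the 72 h lists, and 37052 and 33330 in the 96 h lists. Id1 at 6392 bp (chr2:152742508-152742778) was at 44763 and absent in the 0 h lists, 20017 and 25580 in the 48 h lists, 36623 and 60006 in the 72 h lists, and 32666 and 44118 in the 96 h lists. Both were stronger in the 48 h lists than at 0 h, and the second was also highest at 48 h among all 8 lists.

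**Figure D2:**
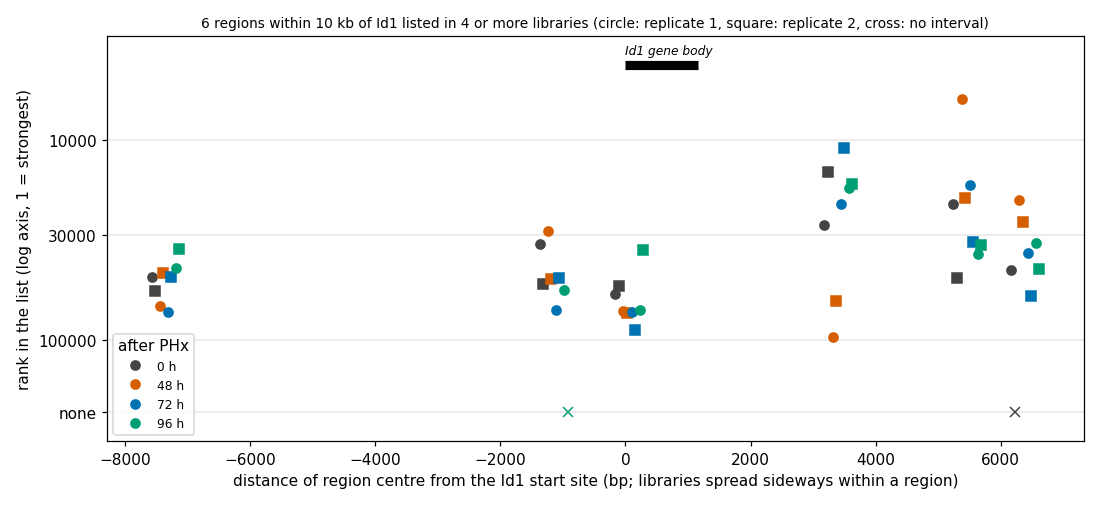
Rank (vertical log axis, 1 = strongest, crosses for no interval) of 6 regions around Id1 against distance from its start in bp, coloured by time after PHx, with the gene body as a black bar. Both 48 h points at 3404 bp drop to 96916 and 63740, below the other 6 points of that region.

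At Id3 an upstream region ranked stronger after PHx and another, which holds the long BMP response element, ranked weaker. Id3 at −8028 bp (chr4:136134567-136136373, intergenic) ranked 61532 and 49215 in the 0 h lists, 46506 and 20522 in the 48 h lists, 43991 and 37084 in the 72 h lists, and 32239 and 35019 in the 96 h lists. All 6 PHx lists were stronger than both 0 h lists, and the limma differences were 0.66 ± 0.317, 0.44 ± 0.317 and 0.60 ± 0.317 at 48, 72 and 96 h (adjusted p = 0.498, 0.896 and 0.901). Id3 at −2931 bp (chr4:136140335-136140798, intergenic) ranked 20773 and 30421 in the 0 h lists, 44211 and none in the 48 h lists, 41954 and 59774 in the 72 h lists, and 49942 and 32767 in the 96 h lists. It was weaker in every PHx list by rank, and by percentile and by fold enrichment at 48 and 72 h but not at 96 h. Id3 at 3447 bp (chr4:136145754-136148135), which begins at the annotated end of the gene and also holds the element, stayed between 16041 and 36601 in all 8 lists. It overlapped at each time by rank and by percentile, and was weaker at 72 h by fold enrichment.

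Smad6, the inhibitory SMAD, is long and carried 36 regions, of which 24 were intronic, 9 intergenic and 3 in an exon or UTR. The strongest distal one by median rank among those in every list, at 29048 bp (chr9:63992669-63993353), ranked 14845 and 13468 in the 0 h lists, 19162 and 46209 in the 48 h lists, 26421 and 35338 in the 72 h lists, and 17207 and 13445 in the 96 h lists. It was weaker at 48 and 72 h and overlapped at 96 h. Next to each other, the region at 32781 bp ranked 72312 and 60743 in the 0 h lists against 33196 and 26693 in the 48 h lists, and that at 32040 bp 47189 and 29289 against 66809 and 48260. The first was stronger at 48 and 72 h (limma 0.92 ± 0.316 at 48 h, adjusted p = 0.346), and the second was weaker in all 6 PHx lists, down to 103295 in 96 h replicate 2, but by percentile at 96 h only and by fold enrichment at 72 and 96 h only. A coding-exon region at 1466 bp ranked 86518 and 67983 in the 0 h lists and 27196 and 41205 in the 48 h lists, with a limma difference of 0.98 ± 0.28 (adjusted p = 0.289). At 24443 bp the ranks were 84258 and 71628 at 0 h and 96412 and 96634 in the only PHx lists with an interval, 72 h replicate 2 and 96 h replicate 1, so that all 6 PHx lists were weaker by rank and by fold enrichment, with an overlap at 72 and 96 h by percentile.

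The iron genes also held distal regions that were weaker by rank in all 6 PHx lists. Hamp at 3824 bp (chr7:30940017-30940401, in an intron of Gm44662) ranked 60748 and 43168 at 0 h, then 79112, 76583 and 116209 in the second replicates at 48, 72 and 96 h, with no interval in the first ones. Slc40a1 at 21202 bp (chr1:45904239-45904521, intergenic) ranked 43598 and 30391 in the 0 h lists, 58747 and 53701 in the 48 h lists, 82426 and 81277 in the 72 h lists, and 63911 and none in the 96 h lists. Slc40a1 at 27437 bp ranked 29615 and 27838 at 0 h and 34517 to 54984 in the 5 PHx lists that held it. Tfr2 at 23250 bp was at 72650 and 72753 at 0 h and at 91311 and 128626 in the PHx lists with an interval, 72 h replicate 2 and 96 h replicate 1. Hfe at 12676 bp (chr13:23697460-23698896), which is the promoter of the histone H4 gene Hist1h4c, ranked 4632 and 4044 in the 0 h lists, 15639 and 8659 in the 48 h lists, 22718 and 14327 in the 72 h lists, and 6319 and 7952 in the 96 h lists. Its limma difference was −0.74 ± 0.246 at 72 h (unadjusted p = 0.00726, adjusted p = 0.646). Of these 5 regions, Slc40a1 at 27437 bp and Tfr2 at 23250 bp overlapped at 72 h by percentile, and Hfe at 12676 bp overlapped at 96 h by fold enrichment.

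Other strong distal regions separated from 0 h at no more than 2 of the 3 times. Slc40a1 at 20105 bp, at the pseudogene Gm18303, ranked 13086 and 10183 at 0 h and 4200 to 12494 after PHx, its 2 strongest values being in 48 h replicate 2 and 72 h replicate 2. By rank it overlapped at each time, and by percentile it was stronger at 72 and 96 h. Trf at 22131 bp ranked 12369 and 13812 in the 0 h lists, 5201 and 10956 in the 48 h lists, 6771 and 15471 in the 72 h lists, and 5590 and 12120 in the 96 h lists. It was stronger in both lists at 48 and at 96 h, the opposite direction to the Trf promoter, and overlapped at both by fold enrichment. Tfrc at 29752 bp ranked 19561 and 9879 in the 0 h lists and was weaker in the 72 h lists (35128 and 23591) by rank but not by percentile. Tfr2 at 10426 bp ranked 17155 and 11826 in the 0 h lists and was weaker in the 96 h lists (28183 and 18000) by rank. By fold enrichment Tfr2 at 10426 bp overlapped at 96 h and was weaker at 72 h instead.

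**Figure D3:**
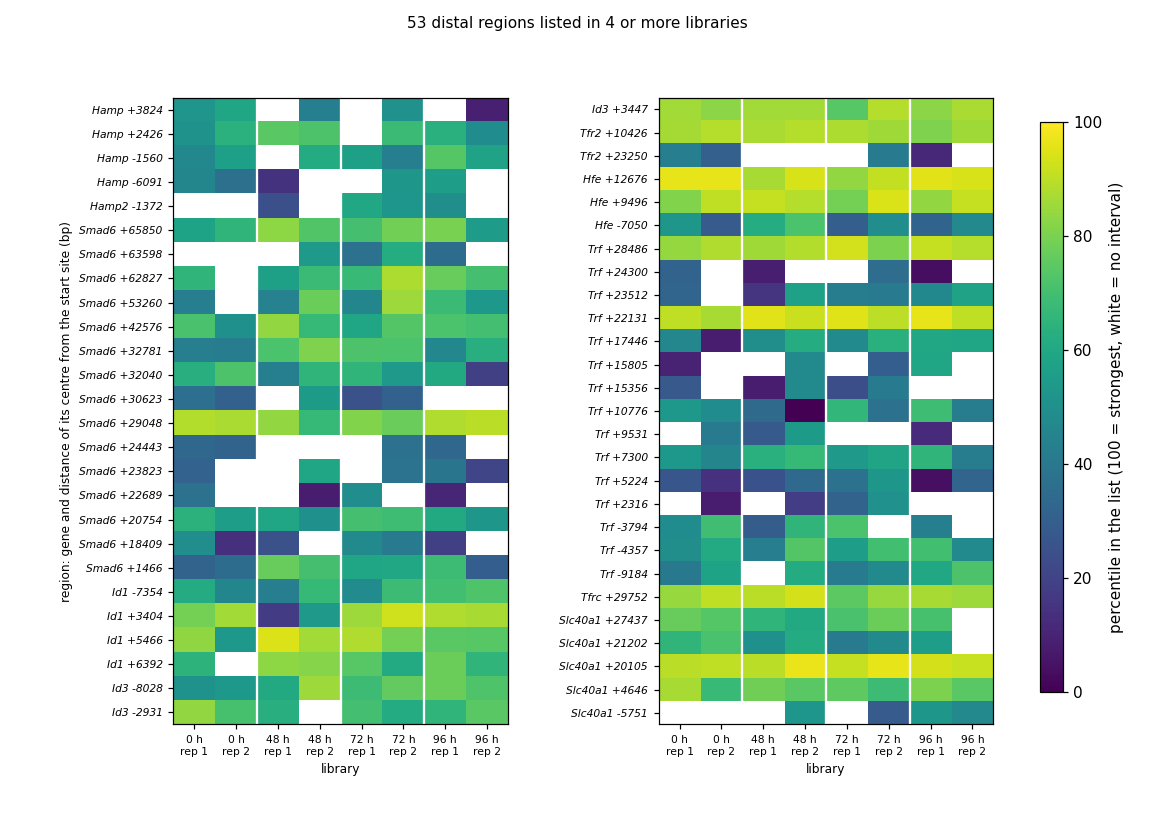
Percentile within the list (colour, 100 = strongest, white = no interval) of 53 distal regions with an interval in at least 4 lists, 1 row per region and 1 column per library. Id1 at 3404 bp darkens in both 48 h columns.

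Over the 54 distal regions, 11 were stronger and 13 weaker at 48 h (all distal regions 16.6% and 22.0%), 8 and 16 at 72 h (21.4% and 18.3%), and 10 and 13 at 96 h (16.4% and 18.0%). By percentile the split turned at the later times, to 16 stronger and 5 weaker at 72 h (all 37.0% and 7.29%) and 16 and 9 at 96 h (24.1% and 10.0%), with 13 and 11 at 48 h (20.0% and 16.5%). In all 6 PHx lists 2 were stronger and 8 weaker than in both 0 h lists (3.33% and 5.38%), and by percentile 5 and 3 (5.86% and 1.81%). The 54 include Hfe at 12676 bp and Trf at 28486 bp, at promoters of other coding genes, which these shares leave out. Hfe at 12676 bp was among the weaker by rank at every time. Of the regions reported here, Id3 at −8028 bp was stronger in all 6 PHx lists by rank, by percentile and by fold enrichment. Hamp at 3824 bp and Slc40a1 at 21202 bp were weaker in all 6 by these 3 orderings. Leaving out 48 h replicate 2 and 96 h replicate 1 cannot undo such a separation and is no further check on it. Regions strongest at 48 h among all 8 lists numbered 5 (4.88% of all).

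Fold enrichment over local background was fitted with limma for the regions with an interval in all 8 lists. At 48, 72 and 96 h 0 of 57473 regions passed an adjusted p under 0.05 (0%), and 0 of the 35 regions at the 10 genes. By a different method, the study's own bulk time course reported regions with changed accessibility against 0 h. The 0 here thus holds only for this fit of peak-list values. Unadjusted p under 0.05 was reached by 5, 2 and 1 of the 35, against 10.1%, 6.25% and 5.65% of all. The median difference from 0 h over the 35 was 0.04, −0.09 and 0.00 (log2), beside 0.00, −0.02 and −0.01 over all regions, and the median SE was 0.303. At this spread between libraries, a difference as small as the SE was not detectable for a single region. The regions with an unadjusted p under 0.05 at 48 h were Id1 at 3404 bp, Smad6 at 1466 and 32781 bp, Hfe at −7050 bp (0.65 ± 0.308) and Trf at 10776 bp (−0.43 ± 0.179). At 72 h they were Hfe at 12676 bp and Tfrc at 29752 bp (−0.57 ± 0.228), and at 96 h Smad6 at 32040 bp (−0.74 ± 0.32).

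**Figure D4:**
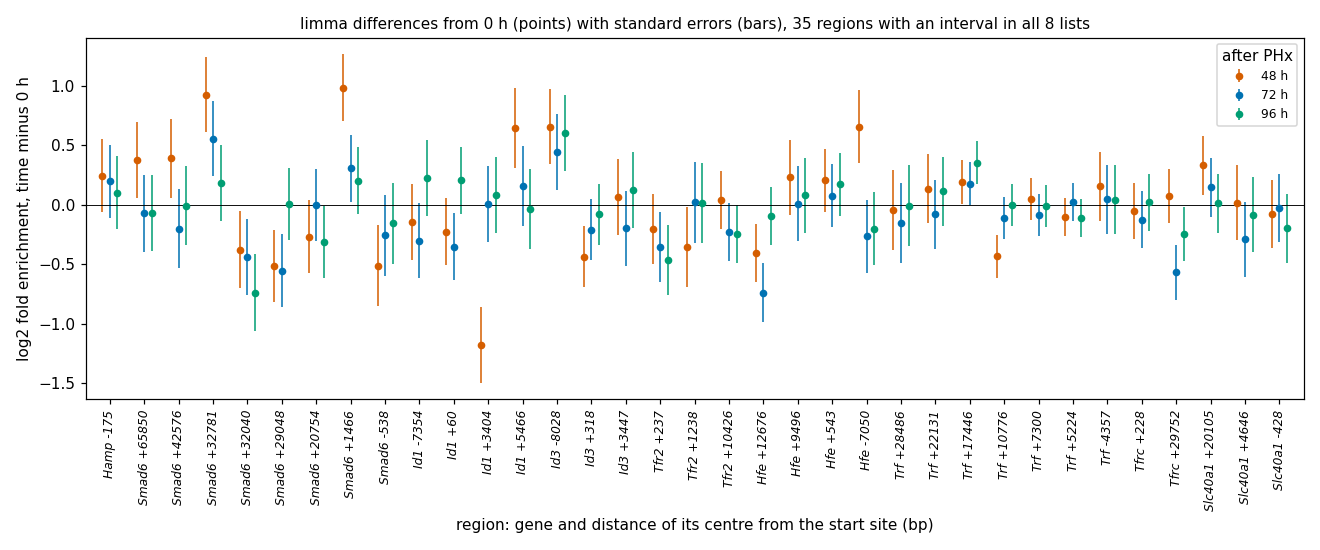
Difference from 0 h in log2 fold enrichment (points) with standard errors (bars) for the 35 regions listed in all 8 libraries at 48, 72 and 96 h. Id1 at 3404 bp stands at −1.18 at 48 h and near 0 at 72 and 96 h, and no region passed the adjusted threshold.

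The wider pathway was read from 41 further genes of BMP ligands and receptors, SMADs and targets, hepcidin regulators and iron handling, of which 37 had a promoter interval in at least 4 lists and Bmp4 and Ftl1 none. At 48 h 9 promoters were stronger and 11 weaker than at 0 h, at 72 h 2 and 12, and at 96 h 7 and 11, beside the shares of all promoters given above. In all 6 PHx lists 2 were stronger and 5 weaker. By percentile the 48 h lists gave 9 stronger and 9 weaker, the 72 h lists 7 stronger and 5 weaker, the 96 h lists 7 stronger and 9 weaker, and all 6 together 3 stronger and 4 weaker (all promoters 7.01% and 3.55%). None passed adjustment (lowest adjusted p = 0.553, the value of all promoters at the smallest p of 0.0357).

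Hemojuvelin (Hfe2), the BMP co-receptor needed for hepcidin, was the only gene of the 10 ligands and receptors to separate at all times. Its promoter ranked 16079 and 10224 in the 0 h lists, 32413 and 25726 in the 48 h lists, 28344 and 25318 in the 72 h lists, and 23721 and 28543 in the 96 h lists. The limma differences from 0 h were −0.30, −0.16 and −0.16 (each ± 0.291, SE) at 48, 72 and 96 h. All PHx lists ranked weaker (exact permutation test, p = 0.0357, adjusted p = 0.553). By rank none of the 8 SMADs and targets did so, while by percentile Smad5, a BMP-activated SMAD, was stronger in all 6 PHx lists. Among the 4 regulators, Gdf15, a stress-induced cytokine, had an interval at 31662 and 24644 at 0 h and none after PHx, so that it is below the minimum of 4 lists and outside the counts above.

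Of the 17 iron-handling genes with a promoter interval in at least 4 lists, 4 had a promoter that was weaker in all 6 PHx lists by rank (7.33% of all promoters), and none passed adjustment. Haptoglobin (Hp), which binds haemoglobin, ranked 18310 and 20741 in the 0 h lists and 32762 to 51554 after PHx, and hemopexin (Hpx), which binds haem, 7889 and 3883 in the 0 h lists and 9230 to 26852 after. Ceruloplasmin (Cp), the plasma ferroxidase, ranked 30153 and 25481 at 0 h and 31795 to 54047 after PHx, but overlapped by percentile at 72 and 96 h. The iron importer Slc11a2 ranked 7233 and 8190 at 0 h and 11458 to 39672 after. Hp, Hpx, Slc11a2 and Hfe2 were weaker in all 6 PHx lists by percentile as well. At 48, 72 and 96 h the limma differences for Hp were −0.52, −0.75 and −0.46 (± 0.287, SE). Those for Hpx were −0.95, −0.89 and −0.51 (± 0.323). Slc11a2 had −0.70, −0.58 and −0.21 (± 0.279), and Cp −0.60, −0.06 and −0.09 (± 0.292). The summed hepatocyte marker signal was lower after PHx too, and its part in these values was not tested.

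By rank a pair of promoters was stronger in all 6 PHx lists. Haem oxygenase 1 (Hmox1), which releases iron from haem, ranked 16579 and 16878 in the 0 h lists, 11165 and 8270 in the 48 h lists, 8486 and 10200 in the 72 h lists, and 8732 and 7308 in the 96 h lists. The ferric reductase gene Cybrd1 ranked 101098 and 92031 at 0 h and 54663 to 84142 after PHx. In the limma fit, Hmox1 differed from 0 h by 0.22, 0.20 and 0.30 (each ± 0.262, SE) at 48, 72 and 96 h. Cybrd1 differed by 0.49, 0.51 and 0.76 (each ± 0.286). Both, with Smad5, were the promoters stronger in all 6 PHx lists by percentile. Hmox1, Cybrd1, Hp, Hpx, Hfe2 and Gdf15, the last listed at 0 h only, were the 6 of 41 genes at the smallest p of the permutation test, which 6.45% of all promoters with an interval reached.

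**Figure D5:**
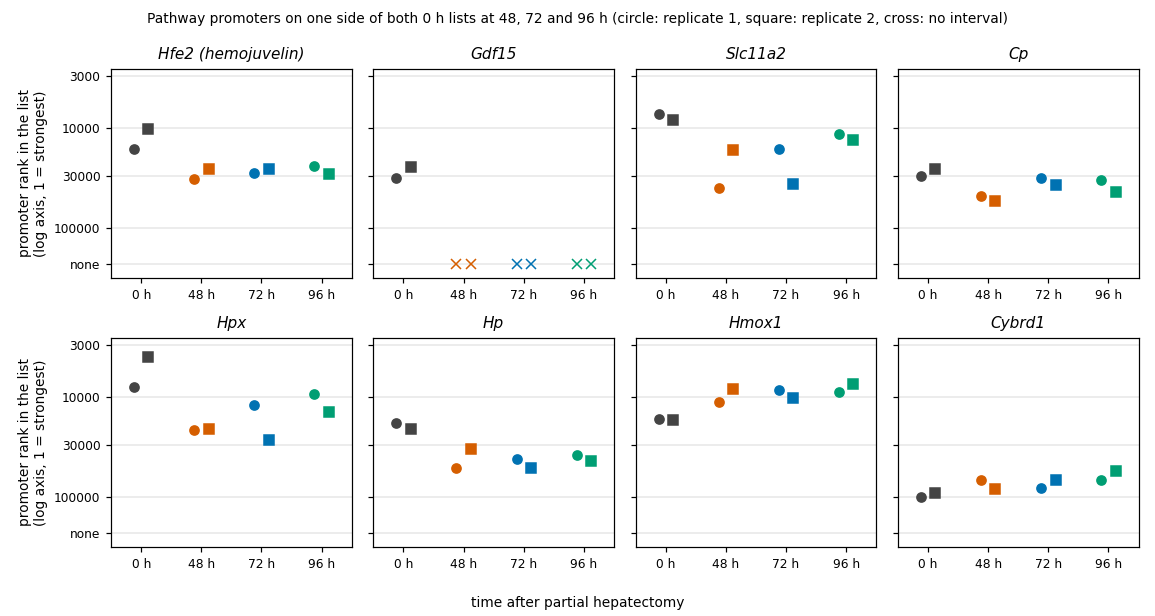
Promoter rank (vertical log axis, 1 = strongest, crosses for no interval) against time after PHx for the 8 pathway genes whose PHx lists all lay on the same side of both 0 h lists at 48, 72 and 96 h, including Gdf15 with an interval in 2 lists only. Hmox1 and Cybrd1 lie above their 0 h points, and the other 6 lie below.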

How the data were processed

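Bulk ATAC-Seq was analysed in 8 libraries, 2 for undamaged liver (0 h) and 2 for each of 3 times after PHx, grouped by the sample labels. The study's methods describe replicates from separate mice, while the labels tie no library to an animal. The study's text describes more replicates at 0 and 48 h than were used here. According to its methods, the authors used the ENCODE pipeline (trimming, Bowtie2 on mm10, removal of PCR duplicates, MACS2), and 1 peak list is deposited for each library. Versions are not given in the sources used here. The deposited lists give −log10 p, −log10 q and a fold enrichment (a ratio to local background) as the authors' peak caller wrote them, with a display score and a summit offset, of which the deposited score was not used. Read counts are not part of the lists, so the depth is unknown and no counting interval was computed.

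Lines with the same interval were collapsed to the highest −log10 p and ranked within a list, absence counting as weaker than any rank. Intervals of all lists were merged on at least 1 bp of overlap. Genes and TSS came from GENCODE M21 basic, and sequence from GRCm38.p6 and its RefSeq promoter table, where 0 deposited intervals ended past a chromosome end. Separation means that both lists of a time lay on the same side of both 0 h lists, for promoters or regions with an interval in at least 4 lists. Promoter log10 ranks of 2 against 6 libraries were tested by an exact permutation test over 28 splits, two-sided, with Benjamini-Hochberg adjustment over all coding promoters. Log2 fold enrichment of regions in all 8 lists was quantile normalized and tested with limma 3.58.1 in R 4.3.3. Python 3.11.15 with pandas 2.3.3 was used otherwise, and the scripts were tested on simulated data. Alternatives were ordering by percentile or by fold enrichment, q under 0.05, a promoter of TSS ±500 bp, 50% coverage of a region, other scalings, the replicate block and leaving out libraries. Named were all 10 genes, pathway promoters that separated alike at all 3 times, and the distal regions strongest in all 8 lists, separated alike at all times or with an unadjusted limma p under 0.05. Of the 54 distal regions counted, 1 is not reported here. A few more at Id1, Id3, Hfe and Trf were chosen after their values were seen. The genes and lists were chosen with earlier results of these data known.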

Additional observations from a re-analysis of the deposited data

Results flagged for a closer look

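A promoter and a pair of distal regions lay on opposite sides of their 0 h ranks at different times. Both 48 h lists were stronger and both 72 h lists weaker than both 0 h lists. The difference between the times was not tested, and by percentile the 72 h side was lost at all 3, where both Hfe intervals overlapped 0 h and the Trf region was stronger. By fold enrichment the Hfe promoter was stronger at 72 h, the Trf region overlapped at 48 h, and Hfe −7050 bp lay on the same sides as by rank. At the Hfe promoter the geometric mean ranks at 72 and 48 h differed by a ratio of 1.31. At Hfe −7050 bp, an intergenic region upstream of the gene, the ratio was 2.08, with ranks of 44729 and 39604 at 48 h and 98039 and 78516 at 72 h beside 59504 and 74867 at 0 h. At Trf 7300 bp, over a coding exon, the ratio was 1.45, with ranks of 43196 and 45842 at 48 h and 64858 and 64388 at 72 h beside 59364 and 57233 at 0 h. Groups of 2 libraries are too small to look for single libraries that stand apart from their group.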

How the results depend on the processing

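By fold enrichment, promoters weaker at 48 h numbered 1 (all promoters 19.4%), stronger at 72 h 2 (16.5%), stronger at 96 h 1 (15.4%) and stronger in all PHx lists 1 (Hfe, 4.21%), distal regions stronger at 72 h 5 (all distal regions 19.1%), stronger at 96 h 5 (14.5%) and weaker in all PHx lists 5 (5.55%), and members at p under 0.05 numbered 1, Trf (log10 rank difference 0.21, p = 0.0357 in the exact permutation test). By percentile, promoters weaker at 96 h numbered 1, distal regions stronger and weaker 16 and 5 at 72 h, 16 stronger at 96 h, and 5 stronger and 3 weaker in all PHx lists. With a promoter of TSS ±500 bp 5 were weaker at 72 h (29.8%). With 50% coverage 5 distal regions were stronger at 48 h (9.65%) and 4 at 96 h (10.7%). Without 48 h replicate 2 and 96 h replicate 1 (chosen after seeing the data) 4 distal regions were stronger in all PHx lists (6.28%). The sign of the promoter difference reversed for Hamp (−2.47 percentile points, and −0.0296 in log10 rank by fold enrichment) and Id1 (−3.39 percentile points), none of them called. The cause was not tested.

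Leaving out 1 library at a time, promoter counts ran, stronger and weaker, from 1 to 3 and 3 to 6 at 48 h, 1 to 2 and 5 to 6 at 72 h, 0 to 2 and 5 to 5 at 96 h, and 0 to 0 and 1 to 5 in all PHx lists. Distal counts ran from 15 to 22 and 16 to 21, 12 to 19 and 21 to 24, 14 to 20 and 18 to 21, and 2 to 8 and 8 to 11. Fewer lists separate more easily, so these counts rise by construction, and without 0 h replicate 1 the all-PHx shares were 13.3% and 21.9% of all promoters and 11.7% and 17.3% of all distal regions. Members at p under 0.05 ran from 0 to 1, the 1 being Trf without 48 h replicate 1 (0.33, p = 0.0476, exact). Without a 0 h library the smallest p is 0.143.

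No paired design was apparent. Deviations of same-numbered libraries correlated between −0.06 and 0.13, so the numbers were not taken as pairs, and with the replicate block 0 members and 3 of all regions passed limma at 48 h and 0 at 72 and 96 h. In every other limma alternative 0 members passed as well, with at most 9 of all regions (normal scores of rank, 48 h). The unknown read depth limits all absent intervals, since an absent peak may be an unsequenced one.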
